A study of Mus musculus with 6 samples.

Results

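Semaphorins, their plexin and neuropilin receptors and the plexin-domain proteins PLXDC1 and PLXDC2 were examined in dermal fibroblasts of wild-type (WT) mice and of mice labelled TSP2KO, which lack thrombospondin-2, a secreted matricellular protein. The genes were chosen by name among the protein-coding genes of the table, and 32 of its 23407 genes belonged to the set: 19 semaphorins, 9 plexins, 2 neuropilins and 2 PLXDC genes. The class 3 semaphorin Sema3c was left out of the set by rule. Counts, ranks and sums of semaphorins below do not cover it. Each group held 3 bulk RNA libraries from primary fibroblasts of the back skin of 12-week-old mice. The cells had been cultured for 3 to 5 days and were harvested at passage 1. The labels give neither the strain nor the construct of the deletion, and nothing in them says that the 3 libraries are different mice, so a p-value here sets the groups against the library-to-library spread alone, possibly a technical one. Values are normalised read counts per gene as deposited, and levels of different genes are compared only per kilobase (kb) of exon.

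Semaphorins are guidance proteins that steer growing axons, vessels and migrating cells, mostly by repulsion. Class 3 members are secreted and are held by a neuropilin, which passes them to a plexin, whereas members of classes 4 to 6 span the membrane and class 7 is tethered to it by a lipid anchor, and these bind plexins directly. Plexins carry a GTPase-activating domain inside the cell, and on binding a ligand they loosen integrin adhesion and reshape actin. In skin, the family is best known from nerves, vessels and immune cells, and fibroblasts express several members.

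Thbs2, the gene of thrombospondin-2, stood at 122061 (WT 1) and 116720 (WT 2) normalised reads, and at 5177, 6635 and 4891 in the TSP2KO libraries. The library labelled WT 3 had 8841, against its label, and every comparison of the groups below rests in part on it. Estimated depth was 14776502 to 34599855 reads per library. All 10 fibroblast markers were above the test's minimum, summing to 204045 to 390022 normalised reads in WT and 165226 to 263155 in TSP2KO, with 29283 to 59560 for Col1a1. Of these 10, 8 were lower in TSP2KO (median log2 fold change -0.73, 0 past the threshold by limma, 3 at an unadjusted p under 0.05), and Dcn, Lum and Pdgfra did not overlap: Dcn, for example, had 38395 to 55417 in WT and 2368 to 12200 in TSP2KO. Over all genes 51.5% were lower, 6.09% were lower at that p and 8.27% were lower without overlap. Markers of other cells were also present. Summed over each list, macrophage markers had 3716 to 6820 in WT and 921 to 1213 in TSP2KO, and Schwann cell markers had 8629 to 23283 and 3418 to 10403. Endothelial markers had 1591, 813 and 6361 in WT 1, WT 2 and WT 3, and 685 to 2970 in TSP2KO. Keratinocyte markers had 1278, 478 and 29406 in the same WT order, and 335 to 9857 in TSP2KO. Pericyte markers had 1638 to 4211 in WT and 4858 to 8457 in TSP2KO, melanocyte markers 79.3 to 1135 and 57.0 to 591, and skeletal muscle markers 17.7 to 304 and 365 to 651. The library labelled WT 3 had the highest WT sum of endothelial, keratinocyte, pericyte, melanocyte and skeletal muscle markers. It had the lowest WT sum of fibroblast, macrophage and Schwann cell markers. Of 6 T cell markers only Cd4 could be used, with at most 10.9. In bulk RNA, fewer cells of a type and less RNA per cell cannot be told apart.

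No single ligand or receptor passed the test with all 6 libraries, and the values of the ligands leaned one way. All 15 semaphorins of the set that could be tested had a lower mean log2 value in TSP2KO. Their median log2 fold change was -0.88, against -0.01 over all 14707 genes tested, of which 51.5% were lower. It was -0.60 without TSP2KO 3 and -0.63 without WT 1, and Sema7a then lay on the other side, leaving 14 of 15 lower. The 13 receptors and PLXDC genes had a median of -0.17, with 8 lower and 5 higher (48.5% of all genes were higher). No member passed the threshold (limma adjusted p between 0.258 and 0.967), in either direction. Over all genes 0.0612% passed as lower and 0% as higher. At an unadjusted p under 0.05, 6 members were lower (6.09% of all genes) and 0 higher (3.66% of all genes). By limma-voom no member and no gene passed either. Without the library labelled WT 3, a single member passed, Sema3a, which was lower, when 2.75% of all genes passed as lower and 2.43% as higher. Then 26 members were lower and 2 higher (52.5% and 47.5% of all genes), and at an unadjusted p under 0.05 there were 11 lower and 0 higher (12.7% and 11.8% of all genes).

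**Figure D1:**
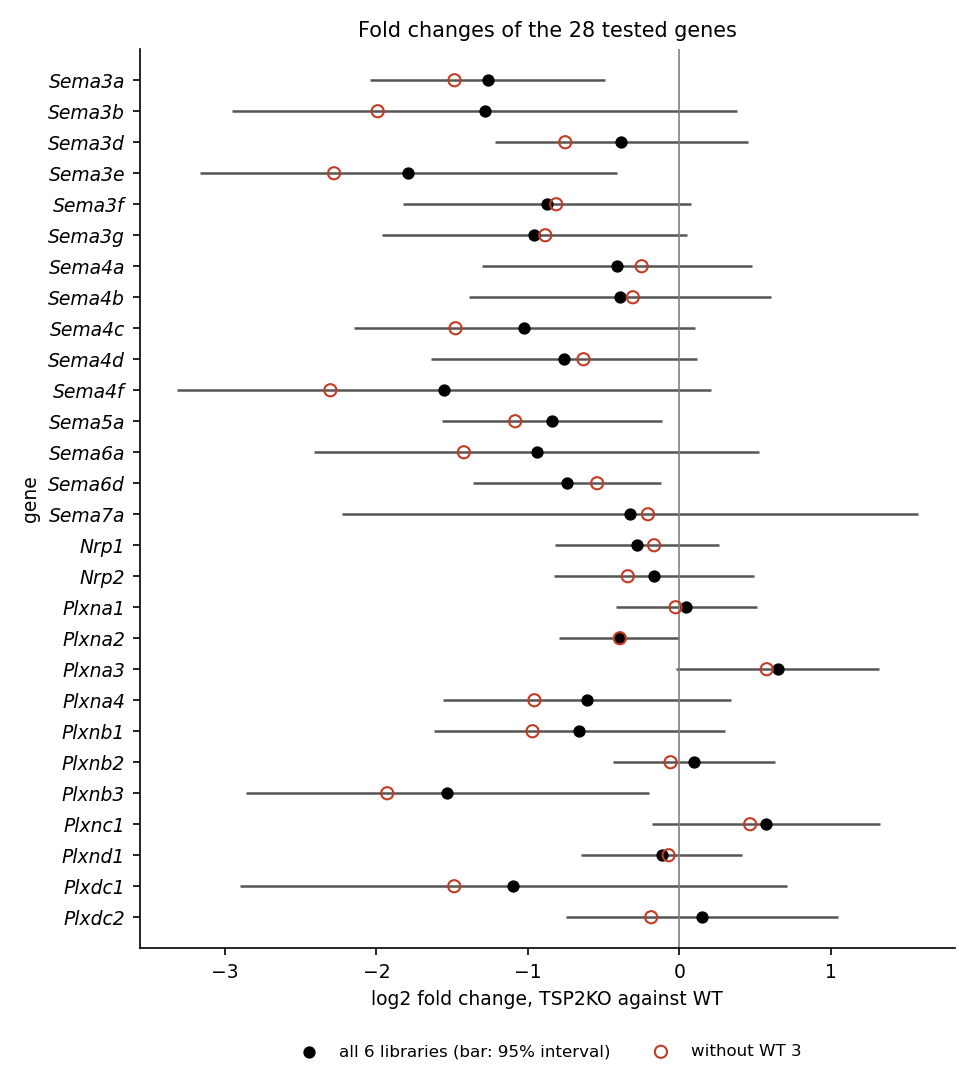
Log2 fold change of the 28 tested genes, TSP2KO against WT, with all 6 libraries (black, bars give the 95% interval of limma) and without the library labelled WT 3 (open red). All 15 semaphorins lie left of 0, from -1.79 for Sema3e to -0.33 for Sema7a, while Plxna1 and Plxnb2 lie at 0.04 and 0.10.

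Sequences upstream of the start sites were compared for 3 members with large negative fold changes, Sema3e, Sema4f and Plxnb3, and for Plxnb2, the most abundant plexin, whose values overlapped between the groups. RefSeq (build GRCm38.p6) gave a start site for 25 of the 32 members, and for Plxnb2 the one at the gene's start in the deposited coordinates was used. The Plxnb3 window ends 13 bases inside the gene as deposited. The 250 bases before the start are printed 5′ to 3′ on the gene's own strand, with capitals marking the letters GGGCGG of a GC box, those of a CCAAT box, and the letters TATAAA of a TATA box, each searched on both strands. The windows are chr5:14025026-14025275 on the plus strand for Sema3e, chr6:82939770-82940019 on the minus strand for Sema4f, chrX:73756853-73757102 on the plus strand for Plxnb3 and chr15:89180789-89181038 on the minus strand for Plxnb2.
Sema3e: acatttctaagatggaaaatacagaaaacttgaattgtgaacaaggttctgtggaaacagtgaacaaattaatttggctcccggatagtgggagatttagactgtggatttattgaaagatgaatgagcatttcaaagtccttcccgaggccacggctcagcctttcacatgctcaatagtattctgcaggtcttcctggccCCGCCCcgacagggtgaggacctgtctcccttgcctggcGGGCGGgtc
Sema4f: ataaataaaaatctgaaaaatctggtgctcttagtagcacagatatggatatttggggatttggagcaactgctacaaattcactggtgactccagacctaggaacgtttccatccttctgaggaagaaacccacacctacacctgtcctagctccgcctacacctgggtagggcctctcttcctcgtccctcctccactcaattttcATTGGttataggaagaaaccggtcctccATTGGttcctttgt
Plxnb3: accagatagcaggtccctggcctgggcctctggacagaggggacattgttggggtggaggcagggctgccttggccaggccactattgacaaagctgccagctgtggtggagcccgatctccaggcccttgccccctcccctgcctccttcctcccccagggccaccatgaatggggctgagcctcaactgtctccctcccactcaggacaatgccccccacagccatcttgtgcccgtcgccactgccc
Plxnb2: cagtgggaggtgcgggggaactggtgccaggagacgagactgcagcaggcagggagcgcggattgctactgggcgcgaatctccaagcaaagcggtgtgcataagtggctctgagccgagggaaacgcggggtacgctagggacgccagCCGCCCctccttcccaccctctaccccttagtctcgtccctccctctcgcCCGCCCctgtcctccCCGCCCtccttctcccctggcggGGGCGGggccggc
The windows differed in make-up. That of Plxnb2 held 4 GC boxes and 20 CpG pairs, Sema3e held 2 GC boxes and 7 CpG, Sema4f held 2 CCAAT boxes and 4 CpG, and Plxnb3 held none of the 3 motifs and 3 CpG, against a median of 6 CpG over all start sites in the table. None of the marked motifs overlapped in these windows. Each member entered with a single start site, the one nearest its start in the deposited coordinates, whereas the background holds every start site of a gene. The units are thus unlike. That start lay farthest off for Sema3a, Sema4d and Plxna2, at 271370, 37064 and 1611 bases. The untested Sema4g, Sema5b, Sema6b and Sema6c are among the 25. A GC box was present at 19 of the 25 members with a start site (76%), against 56.4% of the 13229 start sites of tested genes and 32.7% of all 32851. A CCAAT box was present at 4 (16%), against 35.4% of start sites of tested genes, and a TATA box at none of the 25, against 6.66%. An E box (CACGTG) was present at 1, Sema6d, against 8.26%, and an AP-1 site (TGANTCA) at 1, Sema4c, against 4.90%. These counts describe letters in a window of fixed length and say nothing of binding.

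Among the secreted class 3 ligands, Sema3a and Sema3f had groups that did not overlap. Sema3a encodes the founding repellent of the class, which signals through neuropilin-1 and A-type plexins, and lies on chromosome 5 (13125414 to 13602565, plus strand). Its values were 494, 886 and 420 normalised reads in WT 1, WT 2 and WT 3, and 251, 178 and 292 in the TSP2KO libraries in the same order, which is kept below. Every TSP2KO library lay below every WT library, the one labelled WT 3 included. The means were 600 ± 251 and 241 ± 57.5 (SD, n = 3 each), a 2.41-fold difference (log2 fold change -1.27 with an SE of 0.33, limma adjusted p = 0.258). With the library labelled WT 3 left out the log2 fold change was -1.48 (SE 0.32, limma adjusted p = 0.0481), so Sema3a fell past the threshold only when that library was left out. Without WT 2 it was -0.95. For Sema3a the RefSeq start lay 271370 bases from the gene's start in the deposited coordinates, and its upstream window is not printed.

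Sema3b and Sema3e, the most abundant semaphorins of the set per kb of exon by their mean, had a different pattern. Sema3e, which binds plexin-D1 without a neuropilin and repels endothelial sprouts, lies on chromosome 5 (14025276 to 14256689, plus strand) and had 2920, 2285 and 931 normalised reads in WT 1, WT 2 and WT 3, and 1007, 585 and 255 in TSP2KO. The library labelled WT 3 lay among the TSP2KO libraries, just below TSP2KO 1, and TSP2KO 3 was the lowest. The log2 fold change was -1.79 (SE 0.59, limma adjusted p = 0.363), and -2.28 (SE 0.52, adjusted p = 0.0548) without the library labelled WT 3, against -1.26 without TSP2KO 3. Sema3b, a secreted ligand of neuropilins (chromosome 9, 107597674 to 107609229, minus strand), had 2649, 1704 and 488 in WT, and 744, 858 and 238 in TSP2KO. Here the library labelled WT 3 lay below TSP2KO 1 and TSP2KO 2. Its log2 fold change was -1.29 (SE 0.71, limma adjusted p = 0.654), and -1.99 (SE 0.54, adjusted p = 0.0800) without that library. The value was nearer 0 without TSP2KO 3, at -0.70, or without WT 1, at -0.77.

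The remaining class 3 members were less abundant or less divided. Sema3d, a ligand of neuropilins known from heart and vessel development, had 542, 684 and 282 normalised reads in WT and 458, 284 and 360 in TSP2KO (log2 fold change -0.38 with an SE of 0.36), and its groups overlapped. Sema3f, a repellent that acts through neuropilin-2, had 43.3, 19.6 and 33.4 in WT and 14.9, 16.8 and 16.9 in TSP2KO. Its groups did not overlap, although WT 2 came close to the highest TSP2KO library (log2 fold change -0.88 with an SE of 0.40, limma adjusted p = 0.549). Sema3g, known from endothelium, had 302, 146 and 244 in WT and 178, 125 and 65.0 in TSP2KO (log2 fold change -0.96 with an SE of 0.43). The summed endothelial markers had 1591, 813 and 6361 in WT and 2970, 2816 and 685 in TSP2KO, and their part in the values of Sema3g was not tested. Sema3d, Sema3a and Sema3e lie within 1.87 Mb of each other on chromosome 5, and their log2 fold changes were -0.38, -1.27 and -1.79. Sema3b and Sema3f lie 72.3 kb apart on chromosome 9, at -1.29 and -0.88.

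**Figure D2:**
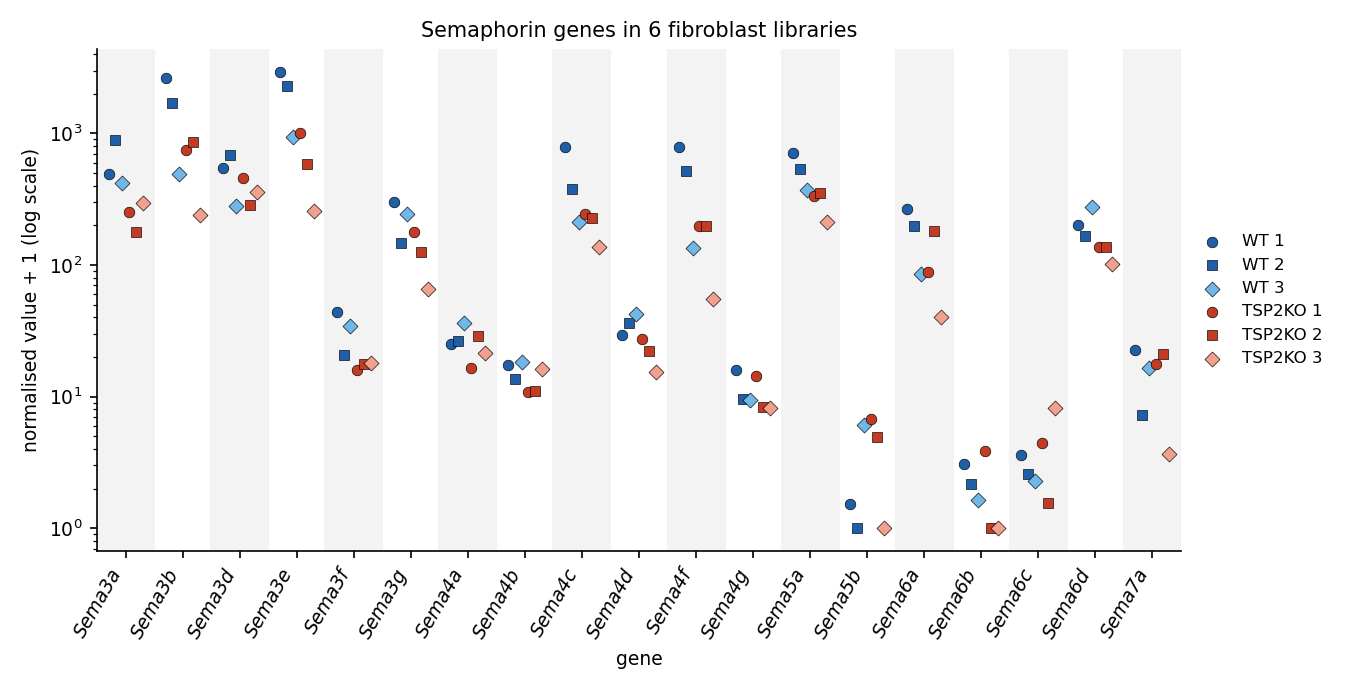
Normalised value + 1 of the 19 semaphorin genes (log axis) in each of the 6 libraries, WT in blue and TSP2KO in red. For Sema3b, Sema3e, Sema4c and Sema4f the library labelled WT 3 (light blue) lies with the red points, with TSP2KO 3 (light red) lowest, while Sema3a and Sema6d keep all 3 WT libraries above all 3 TSP2KO libraries.

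In class 4, the transmembrane ligands Sema4c and Sema4f were well expressed. Sema4c, a ligand of plexin-B2 (chromosome 1, 36548639 to 36558349, minus strand), had 784, 379 and 212 normalised reads in WT and 243, 225 and 135 in TSP2KO. Sema4f, a ligand known from neurons and glia (chromosome 6, 82911885 to 82939769, minus strand), had 789, 516 and 133 in WT and 196, 198 and 54.3 in TSP2KO. For both genes WT 1 and WT 2 lay above the 4 other libraries and TSP2KO 3 was the lowest. The log2 fold changes were -1.02 (SE 0.48, limma adjusted p = 0.559) for Sema4c and -1.55 (SE 0.75, limma adjusted p = 0.580) for Sema4f. Leaving out the library labelled WT 3 gave -1.48 and -2.30 (limma adjusted p = 0.0719 and 0.0647), which did not pass. Without WT 1 the values were -0.54 and -1.03, and without TSP2KO 3 they were -0.76 and -0.94. An unstranded count of Sema4c could also take reads of D430040D24Rik, which overlaps 7.27% of its exons on the other strand and had a mean of 2.33 normalised reads.

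The other class 4 genes were near the lower end of what was tested. Sema4d, a ligand of plexin-B1 and an immune regulator known from lymphocytes, had 28.3, 35.3 and 41.7 normalised reads in WT and 26.4, 21.3 and 14.2 in TSP2KO. Its groups did not overlap (log2 fold change -0.76 with an SE of 0.37, limma adjusted p = 0.589). The summed macrophage markers had 6820, 5491 and 3716 in WT and 1156, 1213 and 921 in TSP2KO. This sum was also lower in TSP2KO. Within WT single markers differed in order: Lyz2, a large part of the sum, had 4557, 3688 and 1758, and Cd68 had 109, 149 and 259. The part of macrophages in the difference was not tested. Sema4a, another ligand with a role in immune cells, had 24.2, 25.5 and 35.3 in WT and 15.5, 27.97 and 20.5 in TSP2KO. Sema4b had 16.5, 12.6 and 17.3 in WT and 9.77, 10.1 and 15.1 in TSP2KO. The groups of both overlapped, with log2 fold changes of -0.41 and -0.39. Sema4g had 14.9, 8.63 and 8.34 in WT and 13.2, 7.27 and 7.12 in TSP2KO, and its mean was just under the minimum of 10 needed for the test.

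Classes 5 to 7 held 2 further ligands whose groups did not overlap. Sema5a, a transmembrane ligand with thrombospondin repeats in its ectodomain that binds plexin-B3 (chromosome 15, 32244810 to 32696341, plus strand), had 710, 533 and 371 normalised reads in WT and 331, 349 and 210 in TSP2KO. The log2 fold change was -0.84 (SE 0.31, limma adjusted p = 0.433), and -1.08 (adjusted p = 0.0701) without the library labelled WT 3. That library lay closest to the TSP2KO values. Sema6d, a transmembrane ligand of plexin-A1 (chromosome 2, 124089969 to 124667770, plus strand), had 199, 164 and 275 in WT and 136, 137 and 102 in TSP2KO. Here the library labelled WT 3 was the highest of all 6 (log2 fold change -0.74 with an SE of 0.26, limma adjusted p = 0.411). Sema6a, a transmembrane ligand of plexin-A2 and plexin-A4, had 266, 198 and 84.0 in WT and 86.8, 180 and 39.2 in TSP2KO (log2 fold change -0.94 with an SE of 0.62). Sema7a, the lipid-anchored ligand of plexin-C1 and integrins, had 21.6, 6.28 and 15.4 in WT and 16.7, 20.1 and 2.67 in TSP2KO (log2 fold change -0.33 with an SE of 0.81). The groups of Sema6a and Sema7a overlapped, and Sema7a had the largest SE of the set.

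Sema5b, Sema6b and Sema6c were barely detected. Their read numbers are estimates, with the commonest value above 0 of a library taken as 1 read. Sema5b reached 5.75 normalised reads in TSP2KO 1, an estimated 10 reads. It was at 0 in WT 2 and TSP2KO 3, where a count of 0 allows up to 1.18 and 2.67 (3 reads). Sema6b reached 2.87 (5 reads) and was at 0 in TSP2KO 2 and TSP2KO 3, which allows up to 1.68 and 2.67. Sema6c reached 7.12 (8 reads) in TSP2KO 3 and had at least 1 read in every library. These limits cover counting error only, and the groups were not compared for these 3 genes.

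Among the plexin receptors, Plxnb2 and Plxna1 had narrow ranges and Plxnb3 a wide one. Plxnb2, the receptor of Sema4c (chromosome 15, 89155549 to 89180788, minus strand), had 4382, 3569 and 2871 normalised reads in WT and 3061, 4312 and 4146 in TSP2KO. Plxna1, a signalling partner of neuropilins, had 963, 1204 and 929 in WT and 1102, 879 and 1222 in TSP2KO. The groups of both overlapped fully, with log2 fold changes of 0.10 (95% interval -0.44 to 0.63) and 0.04 (-0.42 to 0.51) that turned to -0.059 and -0.026 without the library labelled WT 3. Plxnb3, the receptor of Sema5a (chromosome X, 73757090 to 73772514, plus strand), had 2199, 1661 and 837 in WT and 884, 650 and 219 in TSP2KO. WT 1 and WT 2 lay above the other 4 libraries and TSP2KO 3 was the lowest, as for Sema3e. Its log2 fold change was -1.53 (SE 0.57, limma adjusted p = 0.435), and -1.93 (SE 0.55, adjusted p = 0.0879) without the library labelled WT 3, against -0.94 without TSP2KO 3.

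Among the other A-type plexins the directions were mixed. Plxna2, a receptor of class 6 ligands and a partner of neuropilins, had 928, 777 and 863 normalised reads in WT and 635, 717 and 593 in TSP2KO, with no overlap between the groups. The means were 856 ± 75.9 and 648 ± 62.9 (SD, n = 3 each), a log2 fold change of -0.40 (SE 0.17, limma adjusted p = 0.506). Plxna3, a receptor of Sema3f, had 76.2, 60.4 and 58.4 in WT and 74.7, 112 and 126 in TSP2KO, the highest log2 fold change of the set at 0.65 (SE 0.29, limma adjusted p = 0.524). Its groups overlapped only through WT 1, which lay just above TSP2KO 1. Plxna4, a receptor of Sema3a in neurons, had 76.2, 73.0 and 35.9 in WT and 26.4, 45.3 and 45.4 in TSP2KO (log2 fold change -0.61 with an SE of 0.40).

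Plxnb1, the receptor of Sema4d, had 358, 241 and 154 normalised reads in WT and 203, 180 and 91.7 in TSP2KO (log2 fold change -0.66 with an SE of 0.41). Plxnc1, the receptor of Sema7a, had 48.4, 80.4 and 50.04 in WT and 82.2, 69.4 and 114 in TSP2KO (log2 fold change 0.57 with an SE of 0.32). Plxnd1, the receptor of Sema3e and best known from endothelium, had 170, 207 and 207 in WT and 179, 218 and 146 in TSP2KO (log2 fold change -0.12, 95% interval -0.65 to 0.41). All 3 genes overlapped between the groups. Plxnd1 stayed within 146 to 218 while its ligand Sema3e ranged from 255 to 2920 across the same libraries.

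The neuropilins, which hold class 3 semaphorins and also vascular endothelial growth factor (VEGF), did not pass the test. Nrp2 (chromosome 1, 62703285 to 62818695, plus strand) had 2653, 2295 and 1717 normalised reads in WT and 1933, 2693 and 1419 in TSP2KO (log2 fold change -0.17, 95% interval -0.83 to 0.49). Nrp1 (chromosome 8, 128358604 to 128503363, plus strand) had 771, 625 and 872 in WT and 776, 622 and 490 in TSP2KO (log2 fold change -0.28, 95% interval -0.82 to 0.26). In both genes TSP2KO 3 was the lowest library and the others overlapped. The ratio of Nrp2 to Nrp1 within a library, which does not depend on scaling, was 3.44, 3.67 and 1.97 in WT and 2.49, 4.33 and 2.90 in TSP2KO. The mean log2 ratio was 1.55 ± 0.49 for WT, against 1.66 ± 0.41 for TSP2KO (SD, n = 3 each). The difference of 0.11 was within the spread of the libraries (two-sided exact permutation p = 0.900, where 0.1 is the smallest p of 3 against 3 libraries).

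**Figure D3:**
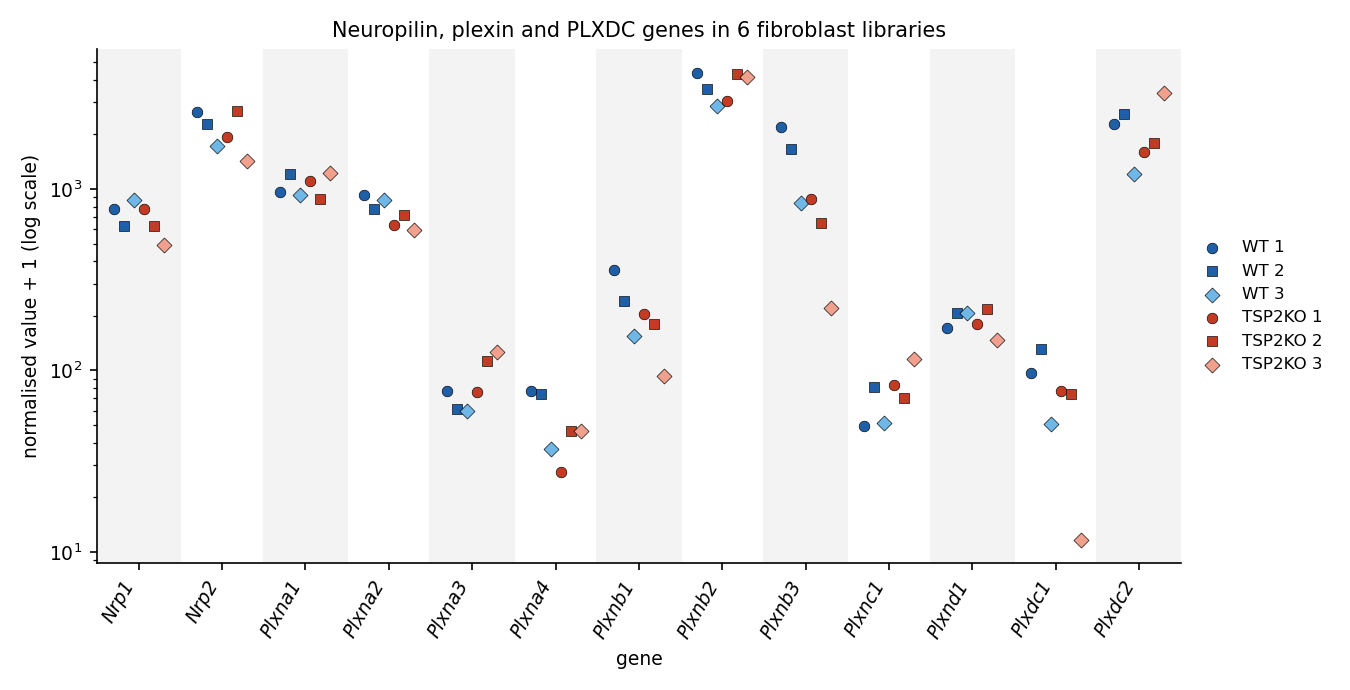
Normalised value + 1 of the 2 neuropilin, 9 plexin and 2 PLXDC genes (log axis) in each of the 6 libraries, WT in blue and TSP2KO in red. Plxnb2 and Plxna1 hold narrow ranges with mixed colours, whereas Plxnb3 runs from 2199 in WT 1 to 219 in TSP2KO 3.

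PLXDC1 and PLXDC2 share a short plexin-like domain but are no semaphorin receptors, and are known as receptors of the secreted factor PEDF. Plxdc2 had 2284, 2595 and 1215 normalised reads in WT and 1607, 1789 and 3401 in TSP2KO. Its highest library was TSP2KO 3 and its lowest was the one labelled WT 3, and the log2 fold change of 0.15 (SE 0.38) turned to -0.19 without the latter. Plxdc1, first described in tumour endothelium, had 96.3, 131 and 49.4 in WT and 75.8, 72.7 and 10.7 in TSP2KO (log2 fold change -1.10 with an SE of 0.77, limma adjusted p = 0.717), and the value was -0.20 without TSP2KO 3. The 2 genes thus went apart in TSP2KO 3, where Plxdc1 was at its lowest and Plxdc2 at its highest. Serpinf1, which encodes PEDF, had 19972 ± 2891 in WT, against 26236 ± 5410 in TSP2KO (SD, n = 3 each), a log2 fold change of 0.38 (limma adjusted p = 0.678).

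Over the whole set, 6 of the 28 tested genes had every TSP2KO library below every WT library: Sema3a, Sema3f, Sema4d, Sema5a, Sema6d and Plxna2 (8.27% of all genes tested did so). No member had every TSP2KO library above every WT library, against 5.90% of all genes. At least 2-fold lower were 7 members (6.15% of all genes): Sema3a, Sema3b, Sema3e, Sema4c, Sema4f, Plxnb3 and Plxdc1. None was 2-fold higher (3.6% of all genes). Of these 7, only Sema3a also kept its groups apart. In the other 6 the library labelled WT 3 lay nearer to the TSP2KO mean than to that of WT 1 and WT 2 on the log2 scale, as it did for 15 members in all and for 68.1% of all genes. TSP2KO 3 was the lowest library for 17 members and for 19.9% of all genes. The number at least 2-fold lower was 9 without the library labelled WT 3 (8.08% of all genes, with 0 members and 7.7% of all genes higher), but 2 without TSP2KO 3 (4.61% of all genes), Sema3a and Sema3e. Every TSP2KO library lay below both WT 1 and WT 2 for 16 members (22.3% of all genes), and for 12 the library labelled WT 3 did too (18.7%).

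Per kb of exon, the order of levels showed which members of the set were most abundant in these bulk libraries. Among plexins, Plxnb2 led with 482 ± 84.9 (SD over 6 libraries) normalised reads per kb and lay above every other plexin in each library, making up 47.5% to 66.9% of the plexin sum. Plxnb3 came next with a mean of 166 but a range of 33.7 to 339, and Plxna1 with 116 exceeded it in TSP2KO 3. Plxna2, Plxnd1 and Plxnb1 followed at 43.8, 25.8 and 21.3, and Plxnd1 and Plxnb1 overlapped, as did Plxna3 and Plxnc1 at 10.7 and 8.87. Nrp2 lay above Nrp1 in all 6 libraries, at 179 and 70.8. Plxdc2 lay far above Plxdc1, at 309 and 15.0.

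By their mean over the 6 libraries, the semaphorins ranked Sema3b, Sema3e, Sema4c and Sema4f, with 233, 143, 71.8 and 59.4 normalised reads per kb. Sema3b had rank 1 in every library, and Sema3e rank 2 in all but TSP2KO 3, where Sema3d took it. Sema4f had rank 4, 3 and 8 in WT and rank 6, 4 and 8 in TSP2KO. By the mean, these were followed by Sema3d, Sema3g, Sema3a and Sema5a at 50.6, 38.9, 30.3 and 22.3, whose ranges overlapped between neighbours. The per-kb sum of the semaphorins was 1470, 1044 and 474 in WT and 525, 475 and 234 in TSP2KO. For the plexins it was 1148, 972 and 714 in WT and 758, 872 and 803 in TSP2KO. The ratio of these sums was 1.28, 1.07 and 0.664 in WT, and 0.692, 0.545 and 0.291 in TSP2KO. The ligand sum, which does not hold Sema3c, thus exceeded the plexin sum in WT 1 and WT 2 and lay below it in the other 4 libraries.

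**Figure D4:**
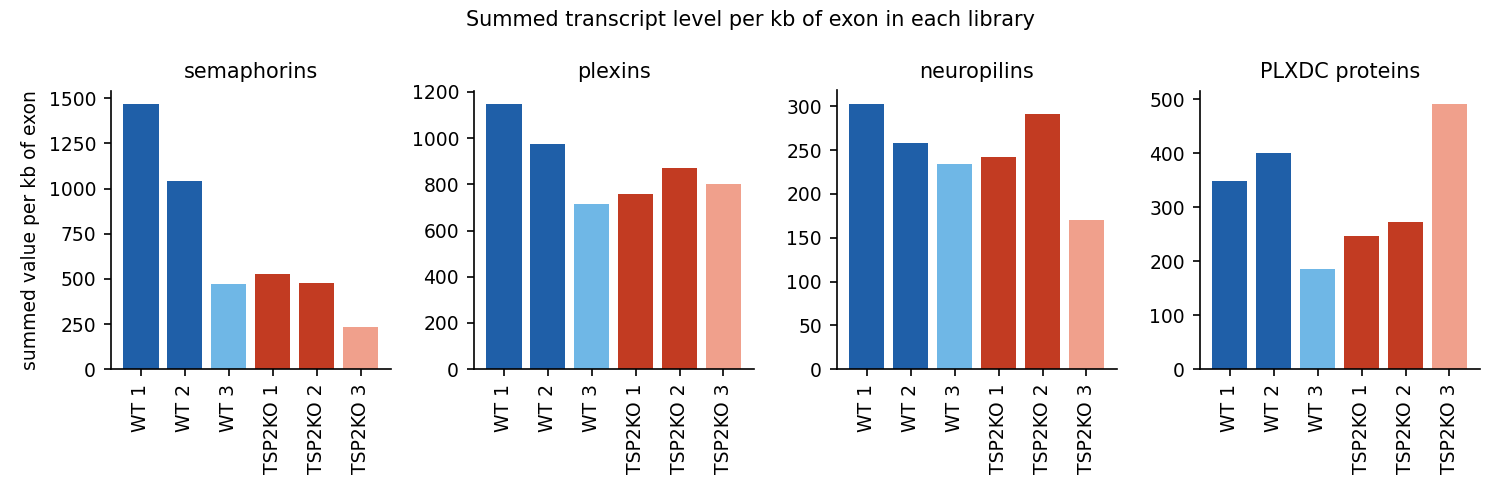
Summed normalised value per kb of exon for semaphorins, plexins, neuropilins and PLXDC genes, with a bar for each library and an axis of its own for each panel. The semaphorin sum is 1470 and 1044 in WT 1 and WT 2 and between 234 and 525 in the other 4 libraries, while the plexin sum stays between 714 and 1148.

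Sema3b, Sema3e, Sema4c, Sema4f and Plxnb3 were picked for low values in the library labelled WT 3 and in TSP2KO. They are set beside markers of Schwann cells, the glia of skin nerves. For these members that library and every TSP2KO library lay below WT 1 and WT 2. The same held for 5 of 7 tested Schwann cell markers, 7 of 10 fibroblast markers, 7 of 14 tested macrophage markers and 18.7% of all genes. It held for 1 of 4 tested melanocyte markers and for 0 tested endothelial, keratinocyte, pericyte or skeletal muscle markers. As a percentage of each gene's mean level in WT 1 and WT 2, the library labelled WT 3 had 22.4% of Sema3b, 35.8% of Sema3e, 36.4% of Sema4c, 20.5% of Sema4f and 43.3% of Plxnb3. TSP2KO 3 had 10.9%, 9.78%, 23.3%, 8.32% and 11.3% of the same genes. The summed Schwann cell markers stood at 40.1% in that WT library, against 48.4%, 38.0% and 15.9% in TSP2KO. Sox10, the transcription factor that defines this lineage, had 573, 352 and 221 normalised reads in WT and 255, 261 and 85.5 in TSP2KO. Of the 8 Schwann cell markers all were listed, 7 were tested, and 6 of the 7 were lower in TSP2KO (51.5% of all genes, median log2 fold change -1.17). By limma 0 passed the threshold and 3 were lower at an unadjusted p under 0.05 (6.09% of all genes), and 0 passed by limma-voom. The part of Schwann cells in the differences of the semaphorins and Plxnb3 was not tested. Over the same libraries Plxnb2 stayed between 72.2% and 110% of the mean of WT 1 and WT 2, and Plxna1 between 81.1% and 113%.

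**Figure D5:**
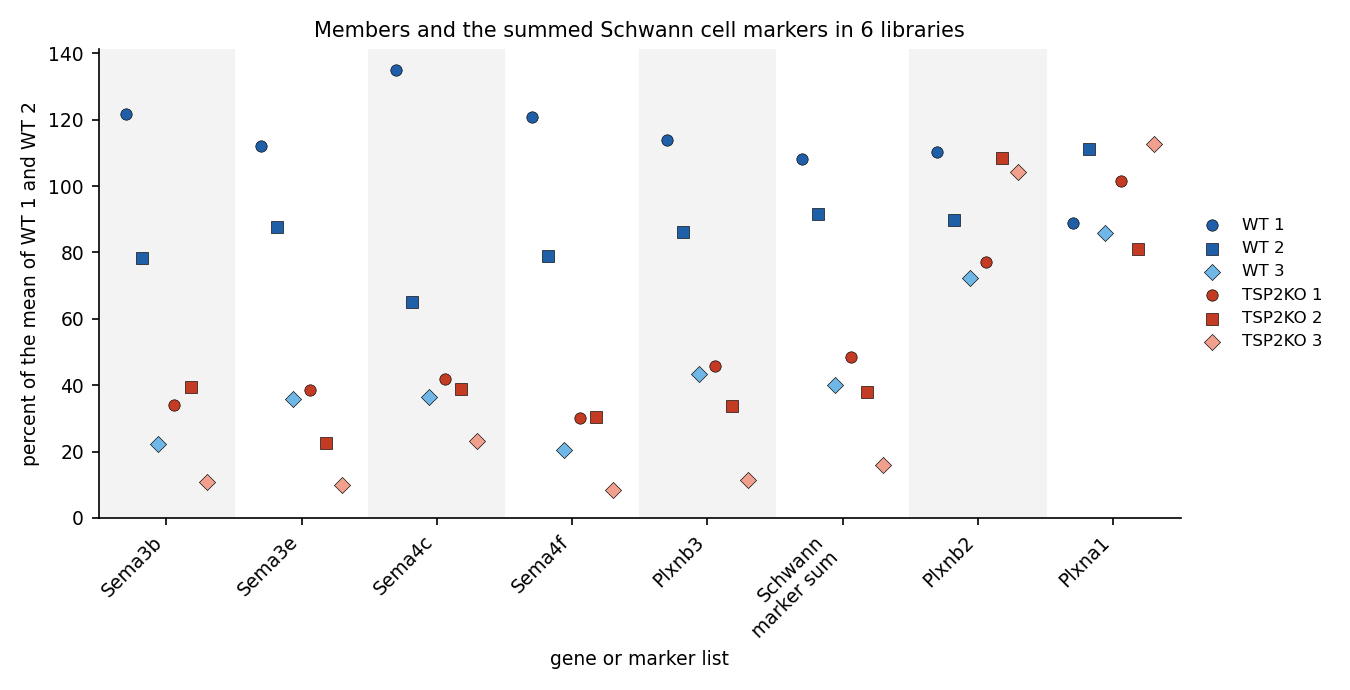
Level in each library as a percentage of the mean of WT 1 and WT 2 (linear axis from 0), for 5 members with low values in the library labelled WT 3 and in TSP2KO, for the summed Schwann cell markers, and for Plxnb2 and Plxna1. The 5 members and the marker sum are all below 50% in WT 3 and in the 3 TSP2KO libraries, while Plxnb2 and Plxna1 stay above 70%.

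Of 64 other genes of the pathway, all listed and tested, none passed the threshold with all libraries (limma; unadjusted p under 0.05 in 5 higher and 8 lower genes, and limma-voom called none). Over all genes, 3.66% were higher and 6.09% lower at that p. Of the 64 genes, 8 had every TSP2KO library above every WT library and 9 had every one below (5.90% and 8.27% of all genes). Among 34 intracellular transducers, 22 were higher and 12 lower (48.5% and 51.5% of all genes, median log2 fold change 0.14). Mical2, an actin-oxidising enzyme of the MICAL family that acts downstream of plexins, had 2046, 1541 and 2098 normalised reads in WT and 2928, 4030 and 3882 in TSP2KO. Its groups did not overlap (log2 fold change 0.93 with an SE of 0.21, limma adjusted p = 0.200), and without the library labelled WT 3 it was 1.01 and passed (limma adjusted p = 0.0494). Rhod, a small GTPase that binds plexins, and Gipc1, an adaptor that binds the neuropilin-1 tail, had log2 fold changes of 0.72 and 0.59 (limma adjusted p = 0.317 and 0.335), each with all TSP2KO libraries above all WT libraries. These 3 are the transducers with the smallest unadjusted p.

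Among 15 coreceptors of the pathway, 11 had a lower mean log2 value in TSP2KO (51.5% of all genes did; median log2 fold change -0.71) and none passed the threshold. Trem2 and Tyrobp, a receptor and its adaptor that pair with plexin-A1 in myeloid cells, had 29.4, 29.4 and 41.7 and 27.3, 27.1 and 32.7 normalised reads in WT. In TSP2KO they had 4.02, 5.03 and 0.890, and 1.72, 7.27 and 4.45 (log2 fold changes -3.14 and -2.59, limma adjusted p = 0.143 and 0.175). All 14 tested macrophage markers were lower as well, with a median of -2.52 and 1 past the threshold (0.0612% of all genes passed as lower), and their part in these values was not tested. L1cam, an adhesion molecule that joins neuropilin-1 in neurons and is also made by Schwann cells, had 1958, 1289 and 632 in WT and 714, 580 and 240 in TSP2KO. WT 1 was its highest library, WT 2 the next and TSP2KO 3 the lowest, as for Sema3b and Sema4f (log2 fold change -1.33, limma adjusted p = 0.461).

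Among 7 proteases that process semaphorins or their receptors, 6 were lower (51.5% of all genes were, median log2 fold change -0.42). Adam17, a sheddase, had 3097, 4034 and 3249 normalised reads in WT and 2201, 1920 and 2227 in TSP2KO, with no overlap (log2 fold change -0.70 with an SE of 0.18, limma adjusted p = 0.245). Pcsk5, a proprotein convertase, had 283, 98.1 and 55.8 in WT and 17.2, 53.1 and 23.1 in TSP2KO (log2 fold change -2.02, limma adjusted p = 0.363). Adamts1, a matrix protease, had 10726, 6130 and 1592 in WT, where the last is the library labelled WT 3, against 1220, 2346 and 1729 in TSP2KO. It did not pass with all libraries (log2 fold change -1.47, limma adjusted p = 0.529). It passed without the library labelled WT 3 (-2.25, limma adjusted p = 0.0206), when 2.75% of all genes passed as lower.

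All 5 VEGF family ligands, which also bind neuropilins or their partners, had lower mean values in TSP2KO (51.5% of all genes were lower, median log2 fold change -0.65). Pgf, placental growth factor, had 1748, 1156 and 703 normalised reads in WT and 421, 656 and 313 in TSP2KO. Its groups did not overlap (log2 fold change -1.34 with an SE of 0.39, limma adjusted p = 0.311), and without the library labelled WT 3 it passed (-1.68, limma adjusted p = 0.0412). Vegfd, a lymphatic growth factor, had 166, 235 and 375 in WT and 100.0, 144 and 92.6 in TSP2KO, again without overlap (log2 fold change -1.14, limma adjusted p = 0.318). Vegfc, its relative, had 130, 116 and 98.8 in WT and 103, 96.8 and 38.3 in TSP2KO (log2 fold change -0.65, limma adjusted p = 0.693). The other 2, Vegfa and Vegfb, had log2 fold changes of -0.11 and -0.09.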

How the data were processed

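The authors deposited a normalised signal per gene, named as normalised counts, for 6 libraries. Per the submitters' processing notes, STAR, Partek and DESeq2 were used with mm10. Cell Ranger and Seurat 5.0.3 are also named there. Per the labels' protocols, libraries kept poly(A) RNA and strand. How reads were counted, and on which annotation, is not given in the sources used here. Each column was assigned by the genotype and number in its name. Depth was estimated as the total divided by the commonest value above 0. Of the values above 0, 68.6% to 73.9% were whole multiples of it within 0.02, so whole reads were not recovered and no count test was run. Coordinates (stop less 1 base) equalled GENCODE M21 for 96.4% of genes, whose exon unions gave lengths. Genes with a mean of at least 10 (14707) were tested on log2(value + 1) by limma 3.58.1 in R 4.3.3 (mean-variance trend, two-sided), with Benjamini-Hochberg adjusted p under 0.05 as the threshold. On that scale the change of low genes is understated. The fit was tested on simulated data. Members and gene lists (semaphorin and neuropilin pathway, PLXDC ligands, markers of fibroblasts and of 8 other cell types) were chosen with earlier results of these data known. Every member could be named, as could Thbs2 and, per pathway list, genes past the threshold or up to 3 with the smallest p. Markers, Vegfa, Vegfb and Serpinf1 are named beyond that rule.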

Additional observations from a re-analysis of the deposited data

How the results depend on the processing

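The 28 tested members gave 355 results over 13 other settings. Of these, 344 kept direction and stayed short of the threshold, 1 (Sema3a without WT 3, log2 fold change -1.48) passed it, and 10 turned direction. All 10 arose as 1 library was left out, over which the log2 fold changes ran from -0.40 to 0.061 for Nrp2, -0.19 to 0.36 for Plxdc2, -0.059 to 0.18 for Plxna1, -0.059 to 0.25 for Plxnb2, -0.26 to 0.027 for Plxnd1 and -0.79 to 0.47 for Sema7a. Leaving out TSP2KO 3 turned Nrp2, Plxdc2, Plxna1, Plxnd1 and Sema7a, WT 3 turned Plxdc2, Plxna1 and Plxnb2, and WT 1 turned Plxna1 and Sema7a. The cause was not tested. The number of members past the threshold lay between 0 and 1 and that of the pathway genes between 0 and 3 as each library was left out, the highest without WT 3. Over all genes, 9 passed (all lower), against 14 with a pseudocount of 10 and 0 with a pseudocount of 0.1, no filter, a mean of at least 100, limma-voom or the replicate block; the counts without 1 library lay between 0 and 761, the latter without WT 3 (357 higher, 404 lower). Replicate numbers did not pair the samples: the correlations of same-numbered deviations were -0.42, -0.25 and -0.39, and no library correlated best with its own number. With the replicate block 0 members and 0 pathway genes passed, and the Nrp2 to Nrp1 difference stayed at 0.11 (exact sign-flip p = 0.750). That difference lay between -0.17 and 0.28 as each library was left out. Rescaling by trimmed means (TMM) kept all 15 tested semaphorins lower (median -0.86) and moved the median of all genes from -0.01 to 0.01. No result met the rules for a closer look, since groups of 3 libraries are not tested for outliers.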
